A study of Mus musculus with 6 samples.

Results

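The enzymes that write, keep and remove methyl groups on DNA, and the enzymes that write the Polycomb mark on histones, were followed at the RNA level in mouse pre-osteoblasts given metformin. In all, 10 genes were chosen by name, for their function and with earlier results of these data known: Dnmt1, Dnmt3a, Dnmt3b, Uhrf1, Hells, Tet1, Tet2, Tet3, Ezh1 and Ezh2. All 10 were present among the 54532 genes of the expression table, and all 10 had a mean level high enough to be tested. RNA sequencing was performed on MC3T3-E1 cells, a line derived from mouse calvaria whose cells can become osteoblasts in culture. The control group (n = 3) was kept in osteogenic medium for 3 days, and the metformin group (n = 3) was kept in the same medium with 0.2 mM metformin, a drug used against type 2 diabetes. Both groups therefore also received the medium's β-glycerophosphate, ascorbic acid and dexamethasone. The dose, the time and the medium are given in the study's methods and text. No genetic change was made, and all samples come from a single line. Bulk RNA was measured, so fewer cells of a kind and less RNA per cell cannot be told apart.

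As background, DNA methylation in mammals sits mostly on the cytosine of CG pairs. DNMT3A and DNMT3B place it on unmethylated DNA. After each round of DNA replication UHRF1 binds the hemimethylated CG pairs and brings in DNMT1, which copies the mark onto the new strand, and HELLS is a remodelling ATPase that opens nucleosomes for the methylating enzymes. The TET enzymes oxidise methylcytosine, which leads to its loss through dilution or base excision repair. EZH1 and EZH2 are alternative catalytic subunits of Polycomb repressive complex PRC2, which methylates H3K27 and helps to keep developmental genes silent. EZH2 is typical of dividing cells and EZH1 of resting or differentiated cells. Dnmt1, Uhrf1, Hells and Ezh2 are known to be transcribed most in dividing cells, around S phase.

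The start-site sequences of these genes are shown first. The 4 genes that rose with metformin each held at least 1 of a searched set of letters there, and the other 6 held none. The letters were chosen with earlier results of these data known. RefSeq windows from 250 bases before to 50 bases after each start (300 bases, build GRCm38.p6) were searched on both strands for TTTCCCGC, TTTCGCGC, TTTGCCGC and TTTGGCGC, letters that the E2F transcription factors are known to bind. All 10 genes had at least 1 window. A match was found for Uhrf1, Dnmt1, Hells and Ezh2, in 1 of the 2 windows of Uhrf1, 1 of the 3 of Dnmt1, and the single windows of Hells and Ezh2. Dnmt3a, Dnmt3b, Tet1, Tet2, Tet3 and Ezh1 had no match. Such letters occurred in 2.27% of all 32851 windows and in the windows of 2.61% of 27025 genes, and in those of 9 of the 17 S phase and division genes that had a window. Among the lists of partner genes described below, a match was found for 2 of 9 genes of DNA methylation, 2 of 10 of PRC2 and 0 in each other list. Of genes known to be silenced, 1 of 11 germline genes and 1 of 7 developmental genes held by Polycomb had a match. In the lines that follow, written 5′ to 3′ on the strand of the gene, the capitals mark the E2F letters. Stretches of at most 30 bases are given where the annotation places the match in a transcribed exon, and 250 bases for Uhrf1 and for Ezh1, the gene that fell, whose window held no match. The stretches lie at chr17:56304083-56304332 on the plus strand, chr9:20952824-20952853 on the minus strand, chr19:38930916-38930945 on the plus strand, chr6:47595011-47595040 on the minus strand and chr11:101226444-101226693 on the minus strand.
Uhrf1: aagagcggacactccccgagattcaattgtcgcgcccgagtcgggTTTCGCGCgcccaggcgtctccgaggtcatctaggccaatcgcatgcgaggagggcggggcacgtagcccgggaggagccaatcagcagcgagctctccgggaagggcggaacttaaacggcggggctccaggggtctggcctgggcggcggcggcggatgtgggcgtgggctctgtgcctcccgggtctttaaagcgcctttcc
Dnmt1: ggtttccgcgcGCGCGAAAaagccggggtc
Hells: agaccaccgggtTTTCCCGCgaaagagaag
Ezh2: ttgggttgctgcgTTTGGCGCtcggtccgg
Ezh1: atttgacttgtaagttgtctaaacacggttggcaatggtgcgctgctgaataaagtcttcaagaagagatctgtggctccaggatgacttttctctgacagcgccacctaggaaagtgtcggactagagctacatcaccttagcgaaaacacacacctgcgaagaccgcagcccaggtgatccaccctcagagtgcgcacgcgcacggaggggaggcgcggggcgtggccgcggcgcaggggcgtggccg

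With the first transcribed base of the window counted as 1 and the base before it as -1, the match began at -185 for Uhrf1, at -62 for Hells and at 4 for Ezh2, and Dnmt1 had matches at -219 and 34 of one window. Other letters known from cell cycle promoters were also searched. TTTGAA or TTTAAA (either strand), known as the CHR element, was found in the windows of 3 of the 10 genes (Uhrf1, Dnmt1 and Dnmt3b) against 30.6% of all genes with a window (27.6% of windows). The CCAAT box (CCAAT, either strand) was found for 4 of the 10 (Uhrf1, Dnmt1, Ezh2 and Tet3) against 41.1% of all genes with a window (37.4% of windows). No E2F match overlapped a match to the other letters. A match is a description of the sequence and was not tested for binding, and its part in the RNA levels was not tested.

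The libraries held between 18399861 and 20652437 reads assigned to genes in the control group and between 19256672 and 22111790 in the metformin group. Levels are given as FPKM, fragments per kilobase of gene scaled to a library size, as deposited. The size implied by the deposited values differed from the reads assigned to genes, in both directions. It was 18260074 against 18399861 for control replicate 1 and 19655718 against 18792236 for control replicate 3. How this size was set is not given in the sources used here. Control replicate 1 stood apart from the other libraries of its group. Its correlation of log2 levels with the other control samples was 0.960 and 0.952, against 0.988 between those, and 0.992 between each pair of the metformin samples. Its deviations from the mean of the other 2 control samples fell with the GC content of the gene (Spearman rho -0.668 across genes, which are not independent replicates). For control replicates 2 and 3 rho was 0.411 and 0.635, each set against a mean that includes replicate 1. For the metformin samples it was 0.127, 0.116 and -0.224. Results of the 10 genes are therefore also given without it where a call changed, and for Hells and Tet1. For the partner genes described below, the number of calls without it is given, and single genes only in part. The labelled cell type was checked by its markers. All 10 osteoblast markers were at a level that could be tested, with a summed level of 11416 to 13422 FPKM in the control and 8136 to 8632 FPKM in the metformin samples. Of these, Col1a1 and Col1a2 were called higher, Ibsp and Spp1 lower, and 6 were not called. Spp1 was the largest part of the summed level, with a control mean of 7703 FPKM. The control means of Alpl, Bglap and Bglap2 were low, at 3.16, 8.04 and 14.1 FPKM. The muscle and endothelial lists (5 genes each) had no gene at a level that could be tested, with Myod1 and Myog at 0 reads. The adipocyte list had Fabp4 (not called), the chondrocyte list 3 genes (1 lower, Col10a1) and the blood list Cd68 (lower) at such a level. The chondrocyte genes Sox9, Col2a1 and Col10a1 had control means of 25.4, 9.71 and 3.79 FPKM, each above that of Alpl. The osteoblast markers Runx2, Sp7 and Sparc, which were not called, had control means of 30.5, 41.6 and 1567 FPKM. Each of these was above all 3 chondrocyte genes. Every metformin sample lay below every control sample for Runx2 and above for Sp7.

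Across the 10 genes, 4 rose with metformin, 1 fell and 5 did not pass the test. Uhrf1 rose about 6.64-fold, Hells 3.65-fold, Dnmt1 3.25-fold and Ezh2 1.77-fold by the ratio of group means, and Ezh1 fell to 0.524 times its control level. The levels were tested as log2(FPKM + 1) with limma-trend, two-sided, over 12681 genes that reached a mean of 0.5 FPKM, with Benjamini-Hochberg adjustment and a threshold of 0.05. All log2 fold changes are metformin minus control on this scale, which understates the change of genes with low levels. Of all genes tested, 13.2% were called higher and 9.28% lower. Higher calls made up 58.7% of all calls, and 45.9% with a correction for GC content. In 23.6% of all genes tested every metformin sample lay above every control sample, and in 20.5% below. Among the 10 genes these counts were 5 above (the 4 that rose, and Dnmt3b) and 3 below (Ezh1, Tet2 and Tet3), while Dnmt3a and Tet1 overlapped. The median log2 fold change was 0.099 over the 10 genes and 0.0053 over all genes tested. The 5 calls were kept in all 14 other fits, while Ezh1 and Ezh2 changed by less than 1 on the log2 scale and so drop out where a change of that size is required. The p-values measure the spread between 3 samples a group. The study calls these biological replicates, and the labels do not say whether they are separate cultures.

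**Figure D1:**
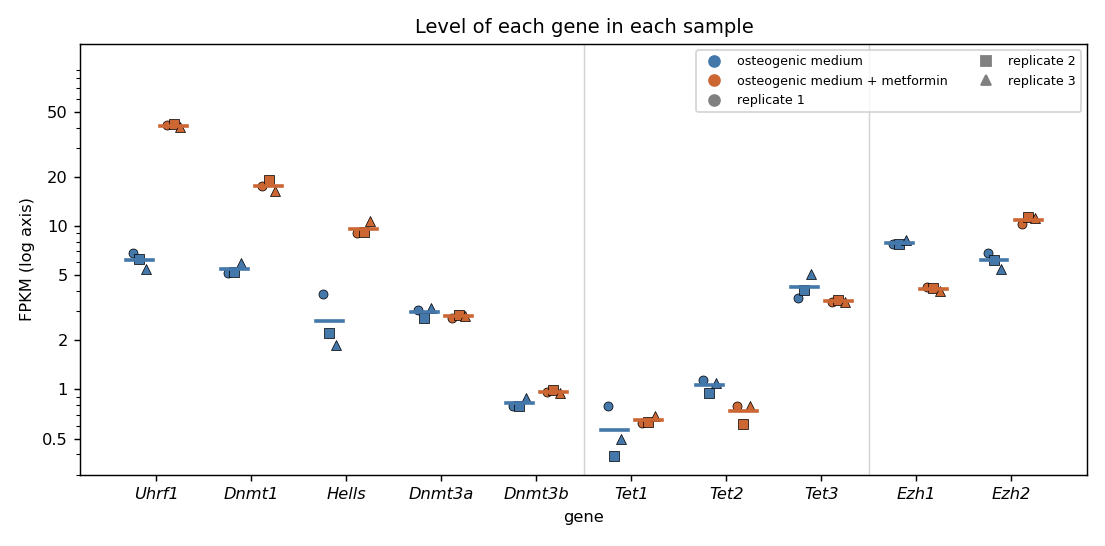
Level of each of the 10 genes in each sample, in FPKM on a log axis, with control samples in blue, metformin samples in orange, the marker shape giving the replicate and the horizontal bar the group mean. Uhrf1 stands at 5.45 to 6.88 FPKM in the control and 40.2 to 42.2 FPKM in the metformin samples, while Dnmt3a overlaps between the groups.

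The 3 genes of maintenance methylation, Uhrf1, Dnmt1 and Hells, all rose. Uhrf1 (ENSMUSG00000001228, GRCm38 chromosome 17, 56303321 to 56323486, plus strand) was measured at 6.88, 6.29 and 5.45 FPKM in the control samples and at 41.2, 42.2 and 40.2 FPKM in the metformin samples. The groups were far apart and each was tight, at 6.21 ± 0.720 and 41.2 ± 1.01 FPKM (SD, n = 3 each). The log2 fold change was 2.55 (SE 0.097, 95% interval 2.32 to 2.79, limma adjusted p = 6.43e-05), which placed Uhrf1 at rank 16 of the 12681 genes ordered from the largest rise. These levels rest on 456 to 562 reads in the control and 3334 to 3917 reads in the metformin samples. A processed pseudogene on chromosome X, Gm5648, is 98.3% identical to Uhrf1 over 1590 bases. It was assigned 1 to 3 reads in the control and 6 to 15 in the metformin samples, few beside those of Uhrf1, although reads that fit both genes could have been assigned to either.

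Dnmt1 (chromosome 9, 20907209 to 20959888, minus strand), the maintenance methyltransferase itself, stood at 5.16, 5.23 and 5.91 FPKM in the control and 17.7, 19.0 and 16.4 FPKM in the metformin samples. Every metformin sample lay above every control sample, with means of 5.43 ± 0.415 and 17.7 ± 1.33 FPKM (SD, n = 3 each). Its log2 fold change was 1.54 (SE 0.093, 95% interval 1.32 to 1.76, limma adjusted p = 0.000143). Uhrf1 was thus at 1.15 ± 0.210 times the level of Dnmt1 in the control and at 2.34 ± 0.118 times with metformin (SD, n = 3 each), a ratio chosen after its values were seen and not tested.

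Hells (chromosome 19, 38930915 to 38971051, plus strand) was measured at 3.83, 2.22 and 1.86 FPKM in the control and at 9.04, 9.17 and 10.7 FPKM in the metformin samples. The groups did not overlap, but control replicate 1 was the highest control sample and set much of the spread (2.64 ± 1.05 against 9.63 ± 0.920 FPKM, SD, n = 3 each). The log2 fold change was 1.58 (SE 0.198, 95% interval 1.11 to 2.05, limma adjusted p = 0.00221), and 1.81 (SE 0.096) without control replicate 1. Hells had the lowest GC content of the 10 genes, at 37.7% against 43.7 to 54.0% for the others, and with a correction for GC content its log2 fold change was 1.67 (SE 0.097).

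The genes for the enzymes that place new methylation showed no call. Dnmt3a (chromosome 12, 3806007 to 3914443, plus strand) was at 3.05, 2.72 and 3.13 FPKM in the control and 2.72, 2.84 and 2.82 FPKM in the metformin samples, so the groups overlapped. Its log2 fold change was -0.062 (95% interval -0.26 to 0.13, limma adjusted p = 0.634), an interval whose bounds are smaller in size than the change of each of the 5 called genes. Dnmt3b (chromosome 2, 153649450 to 153687730, plus strand) was low in all samples, at 0.794, 0.794 and 0.887 FPKM in the control and 0.967, 0.989 and 0.945 FPKM with metformin. Each metformin sample lay above each control sample, but the difference was small and rests on 74 to 110 reads a sample. Its log2 fold change was 0.11 (95% interval -0.10 to 0.32, limma adjusted p = 0.430). Neither gene was called in any of the 14 other fits.

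Because FPKM is scaled to gene length, the 3 Dnmt genes can be set against each other within a sample, as far as that length holds. The deposited lengths are 7377 bases for Dnmt1, 16642 for Dnmt3a and 5106 for Dnmt3b. Whether they match the RNAs present was not tested, and the size of the shares depends on them. Dnmt1 made up 57.3, 59.8 and 59.6% of their summed FPKM in the control and 82.7, 83.3 and 81.3% in the metformin samples. The share was higher in every metformin sample, by 23.5 percentage points (58.9 ± 1.37% against 82.4 ± 1.01%, SD, n = 3 each, two-sided exact permutation p = 0.1, the smallest that the 20 assignments of 3 against 3 samples allow).

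The Tet genes, which encode the oxidising enzymes, were not called. Tet3 (chromosome 6, 83362373 to 83459084, minus strand) had the highest level of the 3 in every sample, at 3.60, 4.05 and 5.11 FPKM in the control and 3.43, 3.53 and 3.40 FPKM in the metformin samples. The metformin samples lay below the control samples, by little in the case of control replicate 1. The log2 fold change was -0.23 (95% interval -0.51 to 0.053, limma adjusted p = 0.217). Without control replicate 1 it was -0.32 and passed the test (limma adjusted p = 0.0359), and with the GC correction it was -0.27 (limma adjusted p = 0.0448).

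Tet2 (chromosome 3, 133463679 to 133545139, minus strand) was measured at 1.15, 0.955 and 1.10 FPKM in the control and at 0.792, 0.618 and 0.791 FPKM in the metformin samples. All metformin samples lay below all control samples (1.07 ± 0.0992 against 0.733 ± 0.10 FPKM, SD, n = 3 each), and the ratio of means was 0.688. The log2 fold change of -0.25 (95% interval -0.49 to -0.015) had a limma adjusted p of 0.12. It passed the test in 3 of the 14 other fits: with the GC correction (-0.32, limma adjusted p = 0.0498), with at least 10 reads required in every sample (limma adjusted p = 0.0486), and with limma-voom on the recovered reads (-0.58, adjusted p = 0.0286). The call for Tet2 and for Tet3 thus depended on the setting, and was lower wherever it was made.

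Tet1 (chromosome 10, 62804570 to 62908996, minus strand) was the lowest of the 10 genes in mean level in both groups. It stood at 0.790, 0.392 and 0.50 FPKM in the control and 0.626, 0.635 and 0.691 FPKM in the metformin samples, so the highest value was that of control replicate 1 and the groups overlapped. The log2 fold change was 0.089 (95% interval -0.21 to 0.39, limma adjusted p = 0.655) and no other fit called it. Without control replicate 1 the log2 fold change of Tet1 was 0.19 (limma adjusted p = 0.189). Within the summed FPKM of the 3 Tet genes, Tet3 took 72.1 ± 6.12% in the control and 71.4 ± 2.14% with metformin (SD, n = 3 each, two-sided exact permutation p = 0.9), a difference whose sign changed when single samples were left out. Tet1 took 9.66 ± 3.99% and 13.4 ± 0.626% (SD, n = 3 each, two-sided exact permutation p = 0.4).

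The 2 Polycomb methyltransferase genes moved in opposite directions. Ezh2 (chromosome 6, 47530139 to 47595341, minus strand) was at 6.85, 6.20 and 5.45 FPKM in the control and 10.3, 11.3 and 11.2 FPKM in the metformin samples. The groups did not overlap (6.17 ± 0.697 against 10.9 ± 0.601 FPKM, SD, n = 3 each), and the log2 fold change was 0.74 (SE 0.099, 95% interval 0.50 to 0.98, limma adjusted p = 0.00295). Ezh1 (chromosome 11, 101191115 to 101226463, minus strand) was at 7.71, 7.77 and 8.21 FPKM in the control and 4.21, 4.19 and 4.02 FPKM in the metformin samples. Both groups were tight and lay well apart (7.90 ± 0.269 against 4.14 ± 0.105 FPKM, SD, n = 3 each), with a log2 fold change of -0.79 (SE 0.073, 95% interval -0.97 to -0.62, limma adjusted p = 0.000610).

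As a share of the summed FPKM of both genes, Ezh1 held 53.0, 55.6 and 60.1% in the control and 29.1, 26.96 and 26.3% in the metformin samples. In each control sample Ezh1 thus had the higher FPKM and in each metformin sample Ezh2. Which of them is higher within a sample depends on the gene lengths used, 7440 bases for Ezh1 and 6678 for Ezh2. The share fell by 28.8 percentage points (56.2 ± 3.59% against 27.5 ± 1.45%, SD, n = 3 each, two-sided exact permutation p = 0.1, again the smallest possible). The level of Ezh2 over that of Ezh1 was 0.784 ± 0.112 in the control and 2.65 ± 0.188 with metformin.

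**Figure D2:**
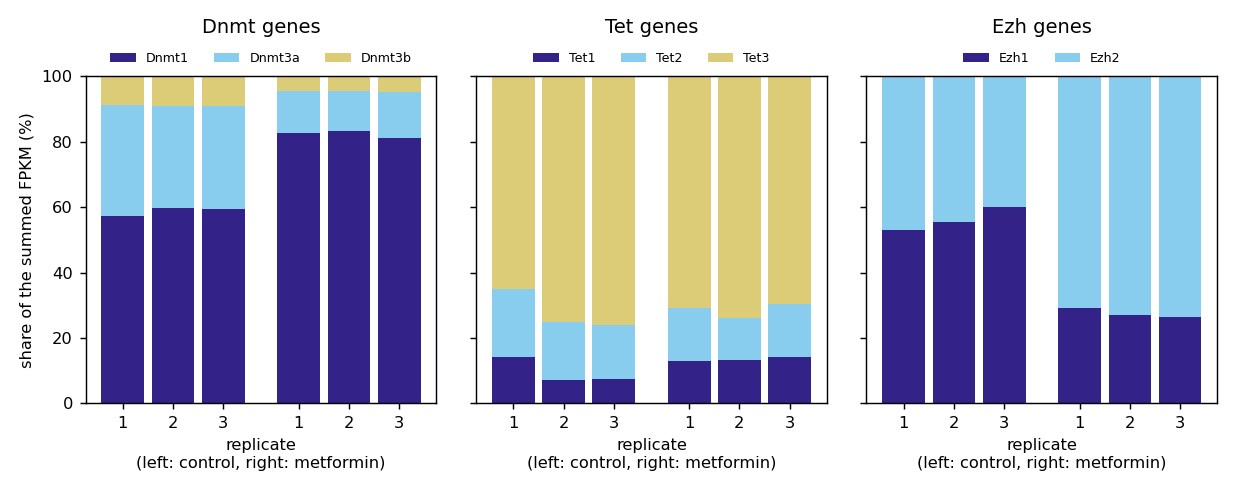
Share of the summed FPKM (percent, vertical axis) of each gene within the Dnmt, Tet and Ezh genes, one stacked bar a sample, control replicates on the left and metformin replicates on the right of each panel. The Dnmt1 share is 57.3 to 59.8% in the control and 81.3 to 83.3% with metformin, the Ezh1 share 53.0 to 60.1% and 26.3 to 29.1%.

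The order of the 10 levels in FPKM, which within a group depends on the gene lengths used, changed with the treatment. In the control, Ezh1 was highest, followed by Uhrf1, Ezh2 and Dnmt1, then Tet3, Dnmt3a, Hells, Tet2, Dnmt3b and Tet1. Neighbours in this order whose sample ranges overlapped were Uhrf1 and Ezh2, Ezh2 and Dnmt1, and Dnmt3a and Hells. With metformin the order was Uhrf1, Dnmt1, Ezh2, Hells, Ezh1, Tet3, Dnmt3a, Dnmt3b, Tet2 and Tet1, with overlap between Ezh2 and Hells and between Tet2 and Tet1. Hells moved from the seventh to the fourth place and Ezh1 from the first to the fifth.

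**Figure D3:**
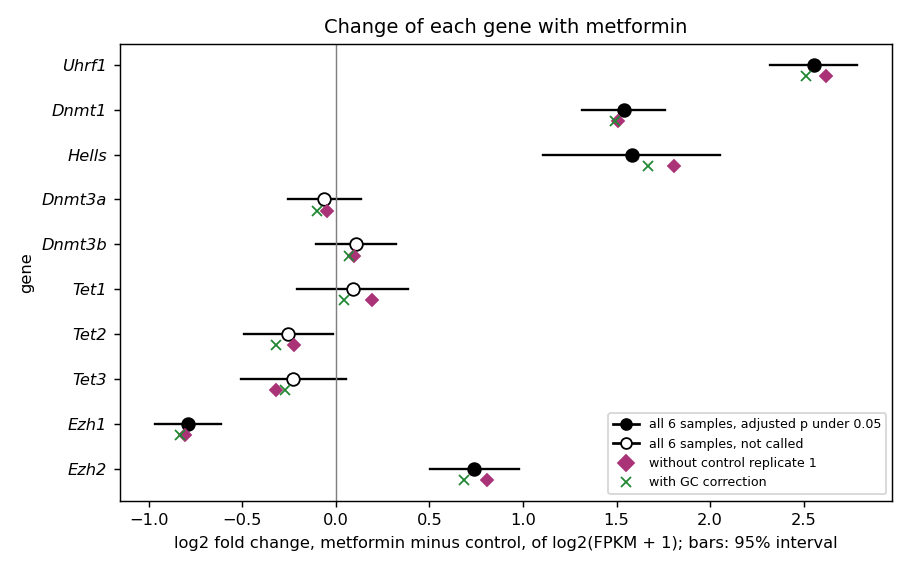
Log2 fold change (metformin minus control, log2(FPKM + 1), horizontal axis) of each gene, with circles for the fit to all 6 samples, filled where the adjusted p passed 0.05, bars for the 95% interval, diamonds for the fit without control replicate 1 and crosses for the GC correction. Uhrf1, Dnmt1, Hells and Ezh2 lie to the right of 0 and Ezh1 to the left under each of the 3 fits, and the other 5 genes lie nearer to 0 than these in each.

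Genes of S phase and cell division were measured beside these, since 4 of the 10 genes are known to follow them. The list was chosen with earlier results of these data known. All 20 of its genes were called higher, against 13.2% of all genes tested. In all 20 every metformin sample lay above every control sample, against 23.6% of all genes tested. Their median log2 fold change was 1.71, ranging from 0.51 for Cdt1 to 2.61 for Top2a, which are named as the ends of the range. Cdt1 lost its call in 4 of the 6 fits that left out a sample (without control replicate 2 or any one metformin replicate). The summed level of the list was 139 to 169 FPKM in the control and 499 to 513 FPKM in the metformin samples. The proliferation marker Mki67 had a log2 fold change of 2.45, the cyclin Ccna2 2.49, the replication clamp Pcna 1.19, the helicase subunit Mcm2 1.24 and the transcription factor E2f1 1.18. Their part in the rise of Uhrf1, Dnmt1, Hells and Ezh2 was not tested. Set beside the whole list, the rises differed in rank. By the ratio of group means, which ran from 1.45 to 7.97 among the 20 list genes, 4 of them rose more than Uhrf1, 11 more than Hells, 14 more than Dnmt1 and 19 more than Ezh2. Uhrf1 was at 4.08, 3.998 and 3.92% of the summed list in the control and 8.25, 8.23 and 8.05% in the metformin samples, higher in every metformin sample. Dnmt1 was at 3.06, 3.32 and 4.26% and at 3.54, 3.71 and 3.28%, and Hells at 2.27, 1.41 and 1.34% and at 1.81, 1.79 and 2.14%, so both overlapped between the groups. Ezh2 was at 4.06, 3.94 and 3.93% and at 2.05, 2.21 and 2.25%, lower in every metformin sample. The sum gives most weight to genes of high level, such as Pcna with a control mean of 47.7 FPKM. Set over each of the 20 list genes singly, Uhrf1 was higher in every metformin sample for 14, lower for 0 and overlapping for 6. These counts were 5, 10 and 5 for Dnmt1, 2, 7 and 11 for Hells, and 0, 19 and 1 for Ezh2. The percentages and counts were added after the values were seen and were not tested.

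The other genes of these pathways were taken from lists of known partners. Of 73 listed genes, 72 were in the table and 68 could be tested, of which 11 were called higher and 10 lower, with a median log2 fold change of -0.037. Of all genes tested, 13.2% were called higher and 9.28% lower, the background for these counts and those of each list below. The partner counts moved with single samples in both directions, as did those over all genes tested. The latter went from 1670 higher and 1177 lower to 2969 and 2590 without control replicate 1, and to 938 and 495 without metformin replicate 1. Without control replicate 1, 19 partner genes were called higher and 22 lower. Most genes that gained a call in that fit are counted as not called in the lists below and are not named. Without metformin replicate 1, 2 or 3, 5 were called higher each time and 5, 3 and 5 lower, and without control replicate 2 or 3, 6 and 7 were called higher, with 6 lower in the former case. Of the 21 called genes, 8 kept their call in all 14 other fits and 13 lost it in at least 1. The limma log2 fold changes and adjusted p-values follow by list.

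Of the partners of DNA methylation, 9 of 10 were tested, 2 were called higher, 2 lower and 5 were not called. Lig1, the replicative DNA ligase, was at 2.08, 2.52 and 2.54 FPKM in the control and at 12.6, 12.0 and 11.9 FPKM in the metformin samples, with a log2 fold change of 1.97 (limma adjusted p = 6.43e-05). Cdca7, which encodes a partner that recruits HELLS to nucleosomes, rose by 0.53 (limma adjusted p = 0.00468). Uhrf2, the paralog of Uhrf1, went the other way. It fell from 16.1, 15.6 and 16.4 FPKM to 10.2, 9.98 and 10.4 FPKM (log2 fold change -0.60, limma adjusted p = 0.00189). The level of Uhrf1 over that of Uhrf2 was 0.388 ± 0.0497 in the control and 4.04 ± 0.186 with metformin (SD, n = 3 each), a ratio chosen after its values were seen. Zbtb24, a zinc finger factor known to activate Cdca7, fell by 0.48 (limma adjusted p = 0.00960) and lost its call without metformin replicate 2 (adjusted p = 0.0585). The untested gene, Dnmt3l, named after its values were seen, encodes a cofactor of the de novo enzymes and was below the limit for testing, with a mean of 0.0057 FPKM in the control and 0.038 FPKM with metformin. Among the 7 readers of methylated CG pairs, Mbd1 had a log2 fold change of -0.34 (limma adjusted p = 0.0334), kept without control replicate 1 and lost on leaving out any other single sample (adjusted p up to 0.134).

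Of the 14 genes that act with the TET enzymes or in base excision, 13 were tested, 4 were called higher, 3 lower and 6 were not called. Parp1, which senses breaks in DNA, rose by 0.84 (limma adjusted p = 0.00155), and Tdg, the glycosylase that removes oxidised methylcytosine, rose by 0.64 (limma adjusted p = 0.00269). Idh1 and Idh2, which make the TET cosubstrate 2-oxoglutarate, had log2 fold changes of 0.52 and 0.29 and kept their calls in 1 of the 6 fits that left out a sample, the one without control replicate 1 (limma adjusted p up to 0.126 and 0.187 in the others). Gadd45a, a stress-induced gene linked to DNA repair and demethylation, was at 26.6, 51.6 and 53.5 FPKM in the control and 7.83, 9.001 and 9.81 FPKM in the metformin samples. Control replicate 1 was thus the lowest control sample, and the log2 fold change was -2.13 (limma adjusted p = 0.00216). Gadd45b fell by 1.01 (limma adjusted p = 0.000448). Ogt, a glycosyltransferase that binds the TET proteins, fell by 0.70 (limma adjusted p = 0.0178), and lost its call without metformin replicate 1 or 2 (adjusted p up to 0.0744). Of the 5 genes of the S-adenosylmethionine cycle, which supplies the methyl donor, Ahcy, which clears the inhibitory product S-adenosylhomocysteine, rose by 0.59 (limma adjusted p = 0.00290). Mat2b, a regulatory subunit of the synthetase, had a log2 fold change of -0.32 (limma adjusted p = 0.0332) and was still called in 2 of the 6 fits with a sample left out, those without control replicate 1 or 3 (adjusted p up to 0.151).

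Of the other PRC2 genes, 9 of 11 were tested, 1 was called higher, 1 lower and 7 were not called. Suz12, a core subunit, was at 13.4, 9.98 and 8.94 FPKM in the control and 16.3, 16.0 and 18.1 FPKM in the metformin samples, with a log2 fold change of 0.61 (limma adjusted p = 0.0281). Eed, the core subunit that binds methylated H3K27, was at 12.0, 13.3 and 12.5 FPKM and at 10.1, 10.1 and 10.2 FPKM, with a log2 fold change of -0.29 (limma adjusted p = 0.0362). Both calls were kept without control replicate 1 and lost on leaving out any other single sample (adjusted p up to 0.110 for Suz12 and 0.154 for Eed). The rise of Ezh2 and the fall of Ezh1 were called in all 6 such fits.

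Of the 20 subunits of PRC1, the complex that ubiquitinates histone H2A, 3 were called higher, 2 lower and 15 were not called. The changes were small, from -0.48 for Pcgf1 to 0.41 for Pcgf5. Pcgf5, Scmh1 (0.40) and Phc1 (0.31) were called higher, and Pcgf1 and Pcgf6 (-0.39) lower. Each of these 5 lost its call in some fits that left out a sample: Pcgf5 in all but that without control replicate 1, Scmh1 without any one metformin replicate, Phc1 without control replicate 2 or any one metformin replicate, Pcgf1 without metformin replicate 2 or 3, and Pcgf6 without control replicate 2 or any one metformin replicate (limma adjusted p up to 0.170 among them). Of 6 genes whose products remove the Polycomb marks, 5 were tested and 0 were called by limma. Their unadjusted p was above 0.05 in every case, and limma-voom also called 0. The exceptions, named after their values were seen, were Kdm6a, an H3K27 demethylase gene, called lower with the GC correction, and Bap1, a deubiquitinase gene, called lower with that correction and without control replicate 1. Their log2 fold changes over all samples were -0.24 and -0.18.

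**Figure D4:**
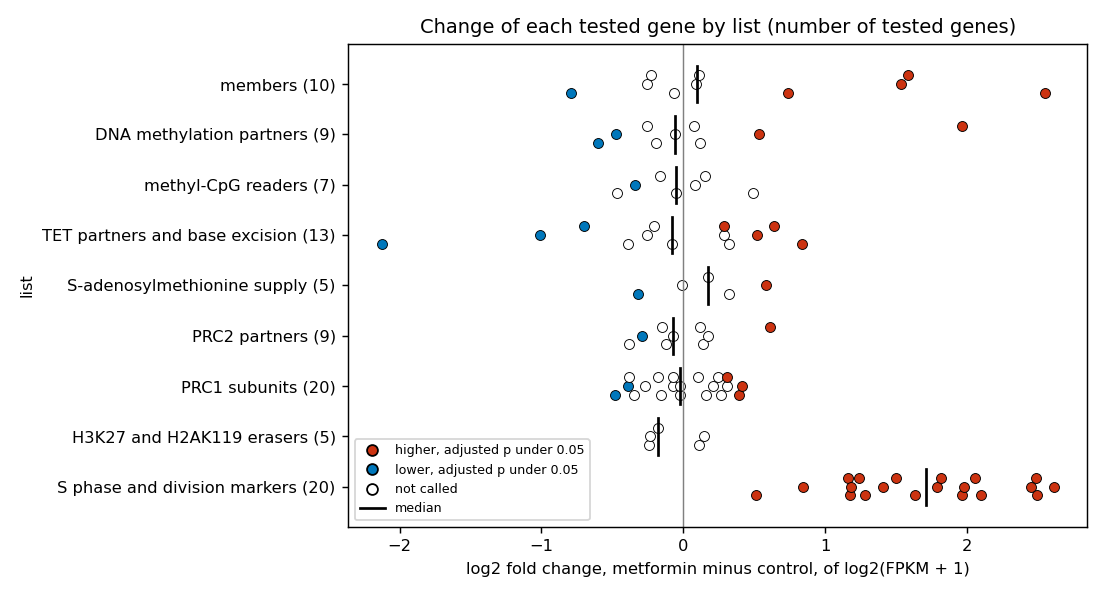
Log2 fold change (metformin minus control, log2(FPKM + 1), horizontal axis) of each tested gene by list (vertical axis), red where called higher, blue where called lower, open where not called, with the vertical bar at the list's median. All 20 S phase and division genes lie to the right of 0 with a median of 1.71, while the 7 partner lists have medians near 0 and genes on both sides.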

How the data were processed

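Total RNA of 6 MC3T3-E1 samples was sequenced, 3 in osteogenic medium and 3 with metformin added. The authors deposited 1 table of gene-level values for 54532 genes, whose header names no unit. Multiplied by gene length, the deposited values of a sample fell on whole multiples of a single step (100.0% of values within 0.001), as FPKM values would, so reads per gene were recovered. The submitters' processing notes name Bowtie 0.12.2 and the builds mm8 and mm9. The gene coordinates match GRCm38 instead (GENCODE M21, 53585 of 54532 genes and all 10 described here), so coordinates are given on GRCm38. The counting tool and whether it used strand are not given in the sources used here. Antisense or overlapping genes at 7 of the 10 held at most 6.5 reads on average.

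The 10 genes, all gene lists, the motif letters and the tests were chosen with earlier results of these data known. Groups were compared with limma 3.58.1 (R 4.3.3, trend and two-sided) on log2(FPKM + 1) over 12681 genes with a mean of at least 0.5 FPKM, with Benjamini-Hochberg adjustment at 0.05. The study's methods name a count model, which was not run as main test because the deposited unit is FPKM. Shares within a family were compared by an exact permutation test over samples. Text names all 10 genes, up to 3 called genes a direction from each partner list by the size of the change, 5 S phase and division genes, and genes of the silenced and cell type lists that could be tested or show the label. Idh2, Cdt1, Top2a, Dnmt3l, Kdm6a, Bap1 and Sycp3 fall outside this rule and were named after their values were seen. The 14 other fits used 0.1 as pseudocount, total reads for scaling, no filter, at least 10 reads in every sample, limma-voom on recovered reads, a replicate block, a GC correction (spline, 5 df), both together, and each of the 6 samples left out. In a separate count, the calls had to reach an absolute log2 fold change of 1. Shares were also computed from recovered reads. Same-numbered samples did not deviate together (correlations -0.053, 0.00027 and -0.055 over genes), so no pairing by number was seen. A pairing is not excluded, since control replicate 1 stood apart from its group and the labels give replicate numbers only. Every pair of samples differed by more than sampling noise (median chi-square per gene of 1.14 or more). Near-identical copies were searched with BLAST+ 2.17.0 (at least 95% over 200 bases), promoter windows came from RefSeq, and figures were drawn with matplotlib 3.10.9.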

Additional observations from a re-analysis of the deposited data

How the results depend on the processing

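The 5 calls among the 10 genes were kept in each of the 14 other fits, and over the 10 genes 135 of the results under those fits kept direction and side of the threshold, while 5, all of Tet2 or Tet3, gained a call. The count of the 10 genes called lower was 3 with the GC correction, 2 with at least 10 reads in every sample, 2 with limma-voom, 0 at an absolute log2 fold change of at least 1, and 1 to 2 with single samples left out. The count called higher was 3 at that fold limit (without Ezh2) and 4 otherwise. The Dnmt1 share rose by 28.9 percentage points when recovered reads stood in for values per length. The Tet3 share difference ranged from -4.20 to 1.37 percentage points with single samples left out, being 0.798 without control replicate 2, 1.37 without control replicate 3 and 0.191 without metformin replicate 3. Of all genes tested, 938 to 2969 were called higher and 495 to 2590 lower with single samples left out (the highest counts without control replicate 1), and 468 and 168 at the fold limit. With the GC correction, which moved the median of all genes by -0.054, 2062 were higher and 2433 lower. Partner genes called higher numbered 6 without a filter, 1 at the fold limit and 5 to 19 with single samples left out. Partner genes called lower numbered 18 with the GC correction, 2 at the fold limit and 3 to 22 with single samples left out. The cause of these differences was not tested.

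With the replicate number as a block, although the numbers do not pair the samples, 698 genes were called lower, 6 partner genes higher and 6 lower, and 1888 genes were called lower with the block and the GC correction together. No call among the 10 genes changed under the block. Dnmt3b and Tet1 rest on 74 to 223 reads a sample. Their intervals hold for log2(FPKM + 1), which understates changes at such low levels, and so do not bound their fold changes. With 0.1 as pseudocount the log2 fold change was 0.21 (SE 0.176) for Dnmt3b and 0.23 (SE 0.299) for Tet1.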

Other observations

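Genes that are held silent by DNA methylation or by Polycomb in most body cells were mostly unread in both groups. Of 11 germline genes known to be repressed by DNA methylation, 7 had 0 reads in all 6 samples (Dazl, Ddx4, Mael, Sycp1, Stk31, Asz1 and Hormad1). A count of 0 allows up to 3 reads in a library, for counting error alone. Brdt, a testis bromodomain gene and the germline gene with a level high enough to be tested, was at 1.15, 1.14 and 0.786 FPKM in the control and 0.670, 0.547 and 0.622 FPKM with metformin. The metformin samples lay below the control samples, with a log2 fold change of -0.32 that was not called (limma adjusted p = 0.0903). Sycp3, named after its values were seen, had 9, 1 and 15 reads in the control and 0, 2 and 4 in the metformin samples, so the groups overlapped.

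Of 10 genes known to be held by Polycomb, 5 had 0 reads in all 6 samples (Nkx2-2, Gata6, Foxa2, Cdkn2a and Cdkn2b). Reads of 0 do not tell a silent gene from one missing in the line, and Cdkn2a and Cdkn2b lie near each other on chromosome 4. Whether they are present was not tested. Pax6, a neural and eye development gene and the one tested from this list, was at 1.41, 1.27 and 1.22 FPKM in the control and 1.03, 1.08 and 1.04 FPKM with metformin, with a log2 fold change of -0.17 that was not called (limma adjusted p = 0.232).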
